A study of Drosophila melanogaster with 66 samples.

Results

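The regions bound by CLAMP in female Drosophila melanogaster embryos of nuclear cycle 11 were set against the regions carrying H4K16ac, acetylation of histone H4 at lysine 16, in embryos of the same sex and cycle. All regions of both peak lists on X and on the 4 large autosome arms (2L, 2R, 3L and 3R) were taken, 5394 for CLAMP and 5950 for H4K16ac, out of 124393 regions in the 25 peak lists of the series. A CLAMP region was called inside when it overlapped an H4K16ac region by at least 1 bp, near when the gap to the closest one was at most 1 kb, and far otherwise. The series has 66 samples from embryos of both sexes at nuclear cycles 11 to 14 and at 2 to 4 h, with CLAMP, H4K16ac, MSL3, IgG and input chromatin.

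The embryos came from a meiotic drive cross, in which the sperm that would give the other sex are largely lost. Their mothers were yw with a PCNA-EGFP transgene at attP2, whose fluorescence marks nuclei and was used to sort the fixed embryos by hand. Their fathers were SPSD/SD72, with + over the duplication Dp(2:y) CB25-4, which bears y+, Rsp[s] and B[s]. Both lists share this cross. Each came from a pool of 200 whole embryos, so nuclei of all positions in the embryo were mixed. There was 1 library for each target and no replicate, so no difference here could be tested. Every interval is an exact 95% interval that covers counting error only (Clopper-Pearson for shares, binomial order statistics for medians). Read depth was unknown.

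CLAMP is a zinc finger protein that the mother supplies to the egg. It binds GA-rich repeats in both sexes and, in males, helps bring the dosage compensation complex called MSL, for male-specific lethal, to the X. H4K16ac is laid down by the acetyltransferase MOF. MOF acts in the MSL complex along the bodies of X-linked genes in males and in the NSL complex at promoters of widely expressed genes in both sexes. In females the protein Sxl blocks synthesis of MSL2, and the MSL complex does not assemble. Cycle 11 is one of the rapid syncytial divisions, before most zygotic genes are switched on.

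CLAMP and H4K16ac met more often than the extent of H4K16ac would give, and by a wider margin on the autosome arms than on X. On X, 539 of 1395 CLAMP regions lay inside H4K16ac (38.6%, 36.1 to 41.3), where 19.8% of all 500 bp windows along the arm were overlapped by H4K16ac. On the autosome arms 1352 of 3999 did (33.8%, 32.3 to 35.3), against 5.03% of windows. The share was thus 1.95 times that of windows on X and 6.72 times on the autosome arms. By arm it was 32.4% on 2L, 37.3% on 2R, 32.2% on 3L and 33.4% on 3R.

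A further 195 CLAMP regions on X (14.0%, 12.2 to 15.9) lay within 1 kb of H4K16ac, where 9.36% of windows did. Along the autosome arms 418 did (10.5%, 9.52 to 11.4), against 5.90% of windows. The largest class on both was the far one, with 661 regions on X (47.4%, 44.7 to 50.04) and 2229 along the autosome arms (55.7%, 54.2 to 57.3), where 70.8% and 89.1% of windows were far. The median gap of a far region was 10638 bp on X and 18138 bp on the autosome arms, beside 19459 and 25214.5 bp for far windows.

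**Figure D1:**
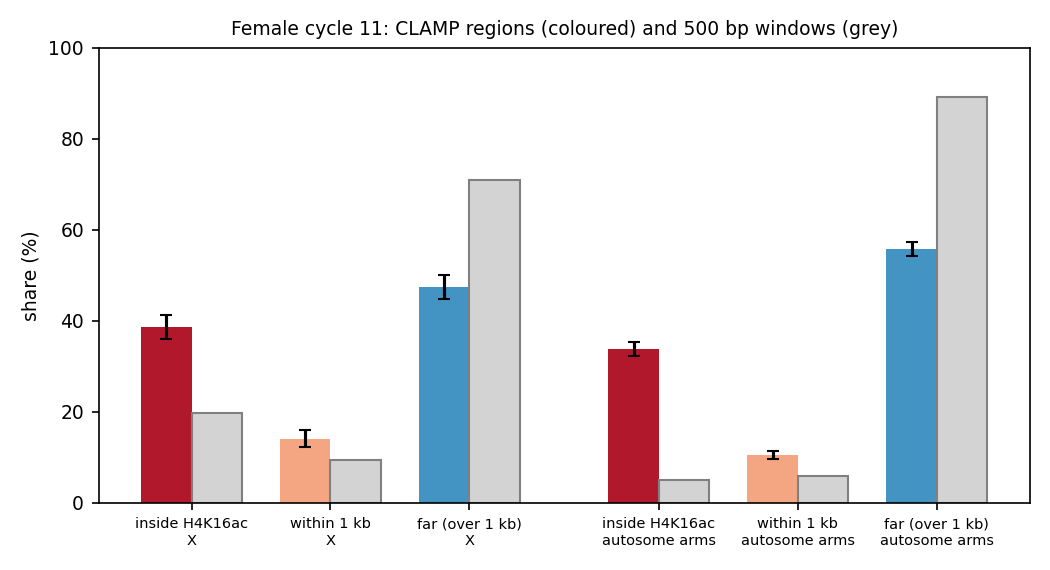
Share of CLAMP regions (coloured bars, in %, with exact 95% binomial intervals) and of 500 bp windows (grey bars) that lay inside, within 1 kb of, or far from H4K16ac, on X and along the autosome arms. The coloured bars for inside are of like height on X (38.6%) and the arms (33.8%), while the grey ones are 19.8% and 5.03%.

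H4K16ac itself lay very differently on the chromosomes. It covered 3.65 Mb of X, 15.5% of its length, in 2001 regions, and 3.52 Mb of the autosome arms, 3.23% of theirs, in 3949 regions. Inside H4K16ac there were 148 CLAMP regions per Mb on X and 384 per Mb on the autosome arms. Elsewhere there were 43.0 and 25.2 per Mb. The density inside was therefore 3.43 times that outside on X and 15.3 times on the autosome arms. These ratios count every overlap of at least 1 bp over H4K16ac length alone, so partial overlaps raise them. The rise is larger for narrow H4K16ac regions, and the median width was 865 bp on X and 626 bp on the autosome arms. How much of the contrast comes from this was not tested.

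Many overlaps were partial. H4K16ac covered the whole CLAMP region for 300 of the inside regions on X (55.7%) and 634 along the autosome arms (46.9%). Taking the single base of the strongest summit in place of the region gave 27.0% inside on X and 21.6% along the autosome arms, to be read against the 15.5 and 3.23% of bases that H4K16ac covered. The class limits fell within a continuous range of gaps. On X the regions next to the 1 kb limit lay in CG14441 (gap 989 bp, fold 3.47) and, beyond it, in HDAC4, a histone deacetylase gene (gap 1004 bp, fold 3.69). At the other limit, a region at mRpL3, a mitochondrial ribosomal protein gene, missed H4K16ac by 2 bp (fold 2.65). Across the autosome arms the regions next to these limits lay in ps, a splicing regulator gene (gap 997 bp, 5.90), and the metal transporter gene Mvl (1006 bp, 7.43), and at CG17746 (1 bp of overlap, 3.18) and Svil (adjacent with a gap of 0, 3.00).

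The strength of a CLAMP region did not follow H4K16ac closely. Fold enrichment, the authors' ratio of signal at a peak to the local background, had a median of 3.54 (3.36 to 3.68) inside H4K16ac on X, 3.09 (2.97 to 3.33) within 1 kb and 3.47 (3.31 to 3.61) far from it. Over the autosome arms the order was different, with 3.10 (3.01 to 3.18) inside, 3.03 (2.92 to 3.20) within 1 kb and 3.38 (3.30 to 3.47) far. For the autosome arms the intervals of the inside and far medians did not overlap. On X they did, and the inside median was the lower one (3.36 against 3.46) when the summit base set the class. A fold of at least 10 was reached by 24 inside regions on X (4.45%) and 41 far ones (6.20%), and by 38 (2.81%) and 116 (5.204%) on the autosome arms.

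Ranked by fold in 5 groups of equal size, the autosomal CLAMP regions lay inside H4K16ac in 36.8% of the weakest group (fold 1.70 to 2.45) and 27.3% of the strongest (5.19 to 18.5). On X the shares had no such order, with 40.9% in the weakest group and 38.0% in the strongest. The inside class also had more regions with several summits and was slightly wider on both. Regions with several summits made up 15.96% of the inside, 4.62% of the near and 7.26% of the far class on X. On the autosome arms they made up 15.3, 6.22 and 6.82%. Median widths of the inside, near and far classes were 381, 322 and 343 bp on X. On the autosome arms they were 350, 313 and 344 bp. A wider region, with more room for several summits, meets H4K16ac more easily when 1 bp of overlap is enough. These differences are therefore favoured by how the class was set.

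**Figure D2:**
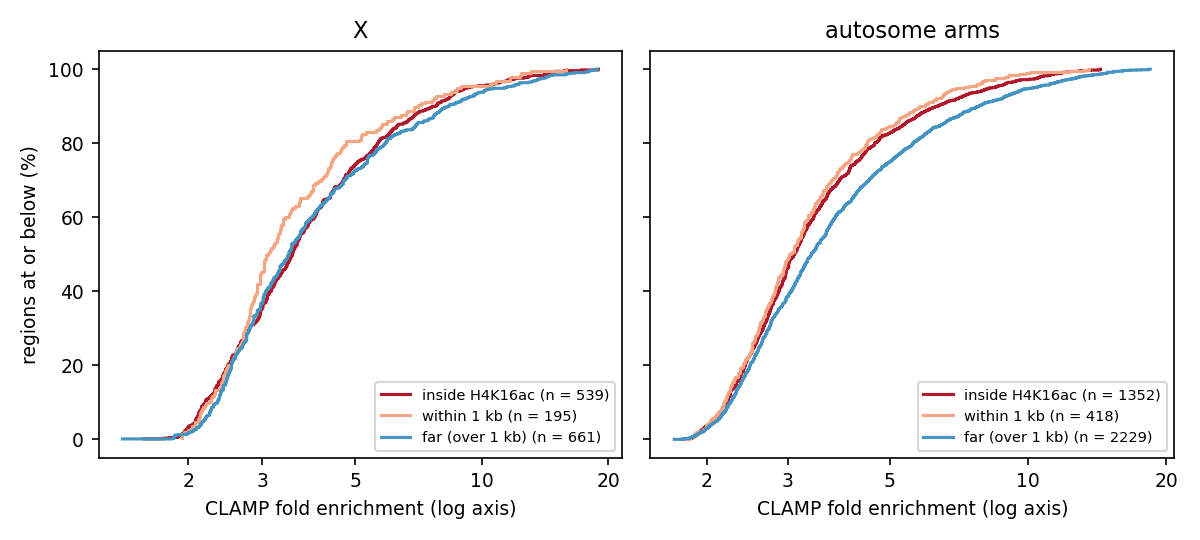
Cumulative share of CLAMP regions (in %) by fold enrichment (log axis) for each class, on X (left) and along the autosome arms (right). On the arms the far curve lies to the right of the inside one (medians 3.38 and 3.10), and on X these curves run together (3.47 and 3.54).

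The 4 regions of highest fold in each class were these. Inside H4K16ac on X they were at CG32532 (X 19545785 to 19547145, fold 19.0), 1550 bp from Rilpl (17.2), in wapl, which encodes the factor that releases cohesin from chromatin (15.7), and at Grip91, a gamma-tubulin ring complex gene, with CG11151 (14.9). H4K16ac covered all 737 bp of the wapl region but 227 of 1361 bp at CG32532. Inside on the autosome arms they were at lncRNA:CR43650 (2R 16828671 to 16829146, fold 14.4), at mts, the catalytic subunit of protein phosphatase 2A (14.4), at Acyp2 and nsl1, a subunit of the NSL complex that also holds MOF (14.2), and at AGO1, the microRNA Argonaute, with CG33155 and mRpL53 (13.7).

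Far from H4K16ac, those on X were 2 regions at or near Vsx1, a homeobox gene (fold 18.9, 14258 bp from the gene, and 18.5 within it), and 1 each in the LIM homeobox gene Lim1 (18.1) and in disco, a zinc finger gene (18.0). The gap to H4K16ac there was between 19243 bp (Vsx1) and 63524 bp (Lim1). On the autosome arms they were in the homeobox gene Ptx1 (3R 30912117 to 30912917, fold 18.5), in trh, a tracheal regulator (18.3), in caup, an Iroquois homeobox gene (17.6), and 1198 bp from lncRNA:CR45297 (18.3). These 4 regions were 15042 to 36673 bp from H4K16ac.

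In the class within 1 kb, the strongest regions on X lay 807 bp from ben, a ubiquitin-conjugating enzyme gene (fold 15.8, gap 659 bp), in the proton channel gene OtopLa (13.1), in the Tousled-like kinase gene Tlk (12.4) and in Act5C, a cytoplasmic actin gene (12.3). Along the autosome arms they lay in cad, a posterior patterning gene (13.6, gap 874 bp), in Ip6k, an inositol phosphate kinase gene (13.2), at Mi-2, a chromatin remodelling ATPase, with Su(Tpl) (12.3), and at HmgZ and HmgD, which encode HMG-box chromatin proteins (10.1).

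Position relative to genes separated the classes more than strength did. A region was placed at a gene end when it lay within 500 bp of either end of a protein-coding gene. The annotation used has no strand, so start and finish were not told apart. On X, 71.8% of inside regions (67.8 to 75.6), 50.3% of near ones and 21.8% of far ones (18.7 to 25.1) were at a gene end. Across the autosome arms the shares were 81.4% (79.3 to 83.5), 54.8% and 26.9% (25.1 to 28.8). Between genes lay 19.8% of far regions on X and 24.7% along the autosome arms, against 2.41 and 1.92% of inside ones. Of all 500 bp windows, 24.4% on X and 27.996% on the autosome arms were between genes. At gene ends were 19.1 and 20.6% of windows. The far share was thus below that of windows between genes, and it was not below that of windows at gene ends.

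H4K16ac also favoured gene ends, so the overlap was read again by place. Among CLAMP regions at gene ends on X, 61.5% were inside H4K16ac (57.6 to 65.3), where 40.7% of windows at gene ends were. Over the autosome arms these shares were 57.0% (54.8 to 59.3) and 17.9%. In gene bodies away from the ends, 22.9% of CLAMP regions on X were inside (19.6 to 26.4), an interval that holds the 20.4% of windows. For the autosome arms the gene body values were 15.4% (13.6 to 17.3) against 2.34% of windows. Between genes 13 of 158 regions on X (8.23%, windows 2.17%) and 26 of 605 on the autosome arms (4.30%, windows 0.511%) were inside. At gene ends of the autosome arms the far regions were the stronger ones, with a median fold of 3.61 (3.43 to 3.81) against 3.07 (2.99 to 3.16) inside. In autosomal gene bodies the medians were 3.29 (3.20 to 3.41) far and 3.18 (3.00 to 3.55) inside. Between autosomal genes they were 3.33 and 3.30. In both of these places the intervals overlapped, as they did in each place on X.

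Read gene by gene, few X genes with CLAMP had no H4K16ac, although 47.4% of CLAMP regions on X were far from it. A gene was counted as carrying a mark when a region overlapped it or the 1 kb on either side. Of 2192 protein-coding genes on X, 43.8% had CLAMP, 72.2% had H4K16ac and 39.4% had both. Of 11639 on the autosome arms the shares were 28.5%, 49.9% and 21.8%. On X, 864 of the 960 genes with CLAMP also had H4K16ac (90%, 87.9 to 91.8), against 58.3% of genes without CLAMP. On the autosome arms 2541 of 3319 did (76.6%, 75.1 to 78.0), against 39.2%.

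Longer genes are met by more regions of either kind, but the gap between genes with and without CLAMP was present in each of 4 groups of gene length. Among the shortest genes of X (at most 1173 bp) 86.4% of those with CLAMP and 35.0% of those without had H4K16ac. Among the longest (from 4920 bp) the shares were 87.4 and 70.1%. Along the autosome arms they were 74.9 and 26.1% for the shortest and 69.9 and 39.4% for the longest. Of the genes with both, 77.9% on X and 80.1% along the autosome arms had a CLAMP region inside H4K16ac and not only beside it. H4K16ac spread over a median of 62.1% of the body of such genes on X and 13.4% along the autosome arms. For genes with H4K16ac and no CLAMP it was 66.2 and 16.6%.

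The genes of the dosage compensation system carried both marks almost throughout. At roX1, which encodes a noncoding RNA of the MSL complex (X 3857230 to 3862697), both CLAMP regions lay inside H4K16ac, the stronger with a fold of 6.70, and H4K16ac covered 77.7% of the gene. At roX2 (X 11579065 to 11580432) 1 CLAMP region lay inside (6.15), with 12.6% of the gene covered. Clamp itself, on 2L, had an inside region of fold 6.73.

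The MSL protein genes had weaker regions, near or below the medians over all CLAMP regions (3.45 on X, 3.23 for the arms). These lay inside H4K16ac at msl-1 (fold 3.45), msl-2 (3.11), msl-3 (2.36) and mof (2.63), where H4K16ac covered 80.0% of the gene. The H4K16ac region at msl-2, whose product is limiting for the complex, had a fold of 4.50. At mle, the RNA helicase gene, CLAMP (3.04) lay far from H4K16ac, although the gene had an H4K16ac region elsewhere. At Sxl, the switch gene of female development, 1 of 3 CLAMP regions was inside (3.28) and 2 were within 1 kb, the stronger with a fold of 4.37. In all, 5 of the 6 protein-coding genes of the MSL, roX and CLAMP list had CLAMP inside H4K16ac. Of all protein-coding genes, 673 of 2192 on X and 2036 of 11639 on the autosome arms had both marks with CLAMP inside H4K16ac.

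The lists below are to be read against the shares over all genes given above, and their genes differ from all genes in length. Their CLAMP regions are to be read against all CLAMP regions, of which 38.6% on X and 33.8% on the autosome arms were inside. Far ones made up 47.4 and 55.7%. All 8 Hox genes, which set segment identity, had CLAMP and 0 had H4K16ac. Their 57 CLAMP regions were all far, with 24 at Antp, 12 at Ubx (strongest fold 16.5), 8 at Abd-B (15.4), 5 at abd-A (12.3), 3 at Scr (10.1), 2 at lab (12.9), 2 at pb (6.60) and 1 at Dfd (15.3). Hox genes are long, with a median of 30563 bp, so several regions per gene are easily met.

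Of 15 gap genes, which divide the embryo into broad domains, 14 had CLAMP and 3 had H4K16ac. Of their 28 CLAMP regions 26 were far, where 55.7% of all CLAMP regions on the autosome arms and 47.4% of those on X were. The strongest far ones were at the head gap genes btd (fold 17.6) and oc (16.6). The other 2 were at gt on X, whose CLAMP region (8.28) lay inside H4K16ac that covered 72.3% of the gene, and at cad, whose strongest region (13.6) lay within 1 kb of H4K16ac. hb was the only gap gene without CLAMP and had H4K16ac. Of 9 pair-rule genes all had CLAMP and 4 had H4K16ac. Of the 8 on the autosome arms 3 had H4K16ac (49.9% of all genes there did), as did run on X (72.2% of all). CLAMP lay inside at run (11.5), eve (7.59) and ftz (2.18), and far at opa (13.9) and slp1 (12.8). Of 18 dorsoventral genes 16 had CLAMP, 12 had H4K16ac and 10 both. Of the 14 on the autosome arms 8 had H4K16ac (49.9% of all genes there did), as did all 4 on X, and 13 of the 14 had CLAMP (28.5% of all). Among their 47 CLAMP regions 35 were far, where 55.7% of all CLAMP regions on the autosome arms and 47.4% of those on X were. The far ones were led by twi, the mesoderm regulator (12.6), and Doc1, a T-box gene (12.2), and the inside ones by the BMP ligand gene dpp (11.3).

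Genes transcribed in the first zygotic wave and at cellularisation were mixed. Of 30 first-wave genes 19 had CLAMP, 24 had H4K16ac and 14 both. Of the 7 on X 4 had CLAMP (43.8% of all genes there did) and 7 had H4K16ac (72.2% of all). Of the 23 on the autosome arms 15 had CLAMP (28.5% of all) and 17 had H4K16ac (49.9% of all). sisA, an X-linked sex-determining gene, and tsg were covered by H4K16ac over 100% of their length and had no CLAMP, while en (fold 14.9) had CLAMP and no H4K16ac. Of 16 genes of cellularisation and the mid-blastula transition 15 had H4K16ac, 9 had CLAMP and 8 both. Of these, 14 were on the autosome arms, where 13 had H4K16ac and 9 had CLAMP. The 2 on X had H4K16ac and no CLAMP. CLAMP was inside at trbl, a Cdc25 antagonist (8.49), at the cyclin gene CycB (5.26) and at Sry-alpha (4.35). It was far at stg, the zygotic Cdc25 phosphatase gene (7.51), the only one of the 16 without H4K16ac.

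Of 17 X-signal and sex determination genes 12 had CLAMP, 15 had H4K16ac and 10 both. Of the 6 on X 4 had CLAMP (43.8% of all genes there did) and 6 had H4K16ac (72.2% of all). Of the 11 on the autosome arms 8 had CLAMP (28.5% of all) and 9 had H4K16ac (49.9% of all). The X-signal genes upd1 (14.4) and run (11.5) had the strongest inside regions, and the only members without H4K16ac were fru (7.46) and dsx (2.97), whose CLAMP regions were all far. The 6 pioneer and GA-binding factor genes all had CLAMP inside H4K16ac, with a fold of 11.2 at grh, 9.01 at Trl, which encodes GAGA factor, 8.89 at psq, 8.88 at zld, the gene of the pioneer factor Zelda, 6.73 at Clamp and 4.23 at lolal. Of their 28 CLAMP regions, 12 were far.

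At cytoplasmic ribosomal protein genes both marks were frequent and overlapped. All 14 on X had both. Of 77 on the autosome arms 52 had CLAMP, 69 had H4K16ac and 50 both. Over all 91 genes 71 of 86 CLAMP regions were inside. Of all CLAMP regions at gene ends, 61.5% on X and 57.0% on the autosome arms were inside. The strongest inside regions of these genes were at RpL14 (fold 9.38), RpL7A on X (8.56) and RpS28a (8.55). The far ones were led by RpL15 (6.97) and RpL10 (6.59), both on 3L, which had no H4K16ac.

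Nearly all mitochondrial ribosomal protein genes had H4K16ac, and fewer had CLAMP. Of 73 genes 72 had H4K16ac and 26 had CLAMP, and 25 of 30 CLAMP regions were inside, the strongest at mRpL53 (13.7) and mRpL17 (5.65). Of all CLAMP regions at gene ends, 61.5% on X and 57.0% on the autosome arms were inside. The gene without H4K16ac was mRpS5, with a far CLAMP region (3.14). Across the autosome arms 19 of 62 had CLAMP (28.5% of all genes there did) and 61 had H4K16ac (49.9% of all), and on X 7 of 11 had CLAMP (43.8% of all) and 11 had H4K16ac. Of 45 proteasome genes 33 had H4K16ac, 18 had CLAMP, and each of those 18 had both, led by Prosalpha3 (7.21), which H4K16ac covered entirely, and Rpn13 (7.17). On the autosome arms 14 of 39 proteasome genes had CLAMP, close to the share over all genes there, and 28 had H4K16ac. Of the 6 on X 4 had CLAMP and 5 had H4K16ac (72.2% of all genes there did).

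Of 119 odorant and gustatory receptor genes, which act in adult sense organs, 18 had H4K16ac and 3 had CLAMP, namely Gr5a (5.54), Or9a (3.09) and Or46a (2.72). On X 7 of 14 had H4K16ac (72.2% of all genes there did) and 2 had CLAMP (43.8% of all). On the autosome arms 11 of 105 had H4K16ac (49.9% of all) and 1 had CLAMP (28.5% of all). Of 18 classic X-linked genes of dosage compensation studies 16 had H4K16ac and 11 both, where 72.2% and 39.4% of all genes on X did. CLAMP was inside at N, the Notch receptor gene (9.05), w (6.51), arm (6.31), which H4K16ac covered over 92.7%, and g (4.71), and far at ct, a homeobox gene (13.5), and f (8.23). The genes without either were y and Sgs4.

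**Figure D3:**
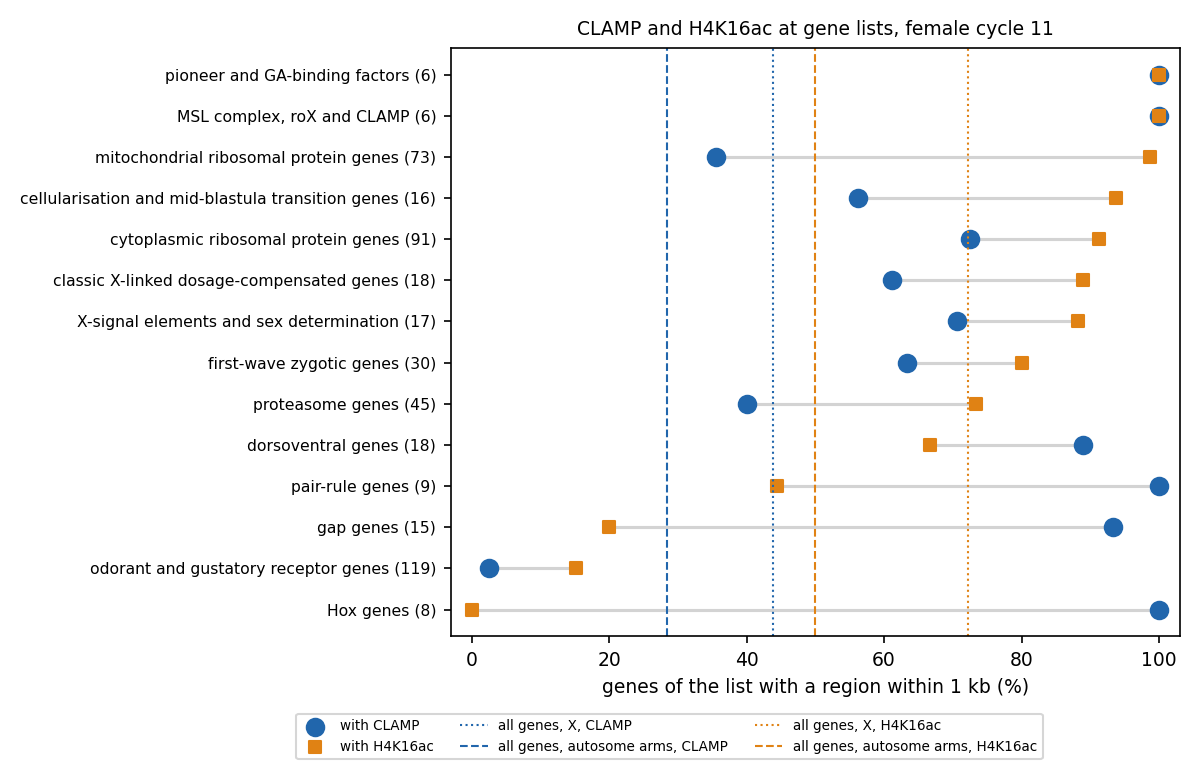
Share of the genes of each list (in %, number of genes in brackets) with a CLAMP region (circles) or an H4K16ac region (squares) within 1 kb, with dotted and dashed lines for all protein-coding genes of X and of the autosome arms. Hox genes have CLAMP in 100% and H4K16ac in 0%, gap genes have 93.3% and 20%, and mitochondrial ribosomal protein genes have 35.6% and 98.6%.

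Most H4K16ac regions held no CLAMP region. On X 1574 of 2001 had none (78.7%, 76.8 to 80.4), and on the autosome arms 2760 of 3949 (69.9%, 68.4 to 71.3). Of those without, 213 on X (13.5%) and 404 along the autosome arms (14.6%) had CLAMP within 1 kb. The regions without CLAMP were narrower, with a median width of 719 bp against 2429 bp on X and 522.5 bp against 949 bp on the autosome arms. Their fold was lower too, at 2.41 against 2.64 on X and 2.54 against 2.75 on the autosome arms.

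A wider region has more room for CLAMP, and the share with CLAMP climbed with width, from 8.39% of X regions of at most 500 bp to 63.0% of those over 5000 bp. Over the autosome arms it climbed from 17.2% to 80.0%, the last from 20 regions. At each width the share was higher on the autosome arms, although over 5 kb the intervals overlapped. Counted per length, X regions of at most 500 bp had 280 CLAMP overlaps per Mb of H4K16ac and those over 5000 bp had 126. On the autosome arms there were 557 and 276. An overlap of 1 bp was enough and only H4K16ac length was counted, which raises the value most for narrow regions. This order therefore cannot show a preference of CLAMP for narrow regions. Within X regions wider than 2 kb, 135 of 280 midpoints of CLAMP regions (48.2%, 42.2 to 54.2) were in the outer 50% of the length. For the autosome arms 98 of 250 were there (39.2%, 33.1 to 45.6). CLAMP regions that overlapped an edge with the midpoint outside were not counted. A preference for edge or middle therefore cannot be read from these shares.

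**Figure D4:**
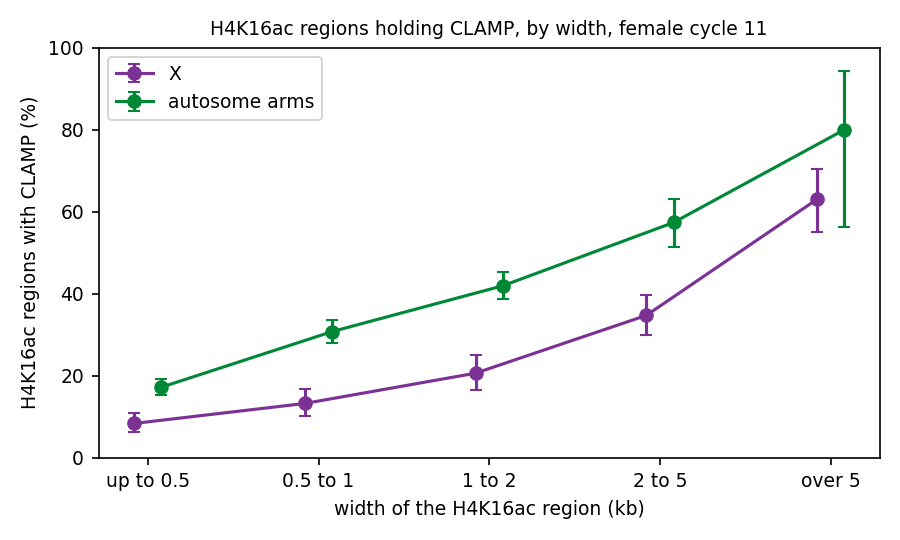
Share of H4K16ac regions that held at least 1 CLAMP region (in %, with exact 95% binomial intervals) by width of the H4K16ac region (kb), on X and along the autosome arms. The share climbs from 8.39 to 63.0% on X and from 17.2 to 80.0% on the arms, and the arms lie above X at each width.

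On X 88 H4K16ac regions held several CLAMP regions, and on the autosome arms 144 did. The fullest on X, of 20461 bp over 6 genes with CG12237, Sec61gamma and Arp10 (X 19641192 to 19661652), held 5. It was followed by one of 20234 bp with nocte, CG2889 and CG2887 and one of 15036 bp with CG34348, GCS1 and CG11756, with 4 each. On the autosome arms a region of 8120 bp on 2R (15128121 to 15136240), which overlapped no annotated gene and lay 8727 bp from Polr2K, held 5. Regions at Pgk, a glycolytic enzyme gene, with Bacc, and at fax with Serinc, held 4 each.

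The widest X region without CLAMP spanned 17487 bp and 10 genes, among them Lrpprc2, CG14787 and Ns3 (X 1458016 to 1475502), with the closest CLAMP region 1388 bp away. The next ones spanned 12647 bp with htk, CG7322 and Usp39, 11850 bp with CG14052 and pcx, and 11549 bp with Nadsyn, Nna1 and Mrgn1. Along the autosome arms the widest spanned 6249 bp with coil, Socs44A and CG42516, 5292 bp with CG4098, Prosbeta6 and Su(P), 5211 bp with CG4565, CG6567 and CG4511, and 5089 bp with EndoG, CG8860 and wash.

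The X regions of highest H4K16ac fold without CLAMP all lay beyond 22 Mb, at the end of the arm with ribosomal RNA repeats. They had a fold of 21.2 (X 23253261 to 23253750, 8021 bp from 28SrRNA-Psi:CR41609), 11.5 (nearest to mir-10404-5), 10.4 (pre-rRNA:CR45856) and 9.74 (18SrRNA-Psi:CR41602). Reads from repeated sequence cannot be placed uniquely, so these values are uncertain. Across the autosome arms the highest were at hfp, a splicing factor gene (5.59), CG8777 with the planar polarity gene Vang (4.63), the Mediator gene kto (4.24) and CG45086 with Galphaq (4.22). The last had a CLAMP region 6 bp away.

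H4K16ac covered at least 90% of 411 X genes, and 211 of them had no CLAMP within 1 kb (51.3%, 46.4 to 56.3), as did 158 of 268 on the autosome arms (59.0%, 52.8 to 64.9). Over all genes, covered or not, 56.2% on X and 71.5% of autosomal ones had no CLAMP. The longest covered genes without CLAMP on X were Rbcn-3A (14743 bp, 90.9% covered) and Rbcn-3B (7906 bp, 98.4%), which encode regulators of the vacuolar proton pump, mip130, a Myb complex subunit gene (12080 bp, 94.6%), and Spt6, an elongation factor gene (7188 bp, 98.6%). mip130 and Rbcn-3B overlap each other. Over the autosome arms they were CG5707 (3062 bp), the autophagy gene Atg9 (2833 bp), Mdh1, a malate dehydrogenase gene (2559 bp), and Art7, an arginine methyltransferase gene (2351 bp).

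The other lists of the series played no part in setting the classes. At 2-4 h in females the share with H4K16ac differed widely between the classes and the share with CLAMP by a few percentage points. Female 2-4 h H4K16ac overlapped 83.3% of the inside regions on X (79.9 to 86.4), 53.8% of the near ones and 24.96% of the far ones (21.7 to 28.4), with 11.6% of windows. For the autosome arms it overlapped 93.9% (92.5 to 95.1), 69.4% and 33.3% (31.3 to 35.3), with 10.9% of windows. Female 2-4 h CLAMP overlapped 96.5, 95.4 and 92.6% of the inside, near and far regions on X, and 98.1, 94.0 and 94.5% on the autosome arms. The lists differ greatly in length, so shares were compared within a list only.

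The share of these sites with MSL3, mapped in males only, depended on the list. At male cycle 14 it overlapped 127 of the inside CLAMP regions on X (23.6%, 20.04 to 27.4), 11.8% of the near ones and 11 of the far ones (1.66%, 0.834 to 2.96), where 11.8% of windows were overlapped. On the autosome arms it overlapped 0 of 1352 inside regions, with an exact 95% upper bound of 0.272%, and 0.404% of far ones, against 1.30% of windows. The male cycle 13 list, with 15113 regions against 1417, overlapped 22.1% of inside and 7.56% of far regions on X (windows 14.7%), and 22.6% of inside and 19.2% of far regions on the autosome arms (windows 18.6%). The male 2-4 h list, with 460 regions, overlapped 7.79% of inside and 1.82% of far regions on X (windows 1.73%). On the autosome arms it overlapped 2.44% of inside and 3.90% of far regions, against 0.154% of windows.

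**Figure D5:**
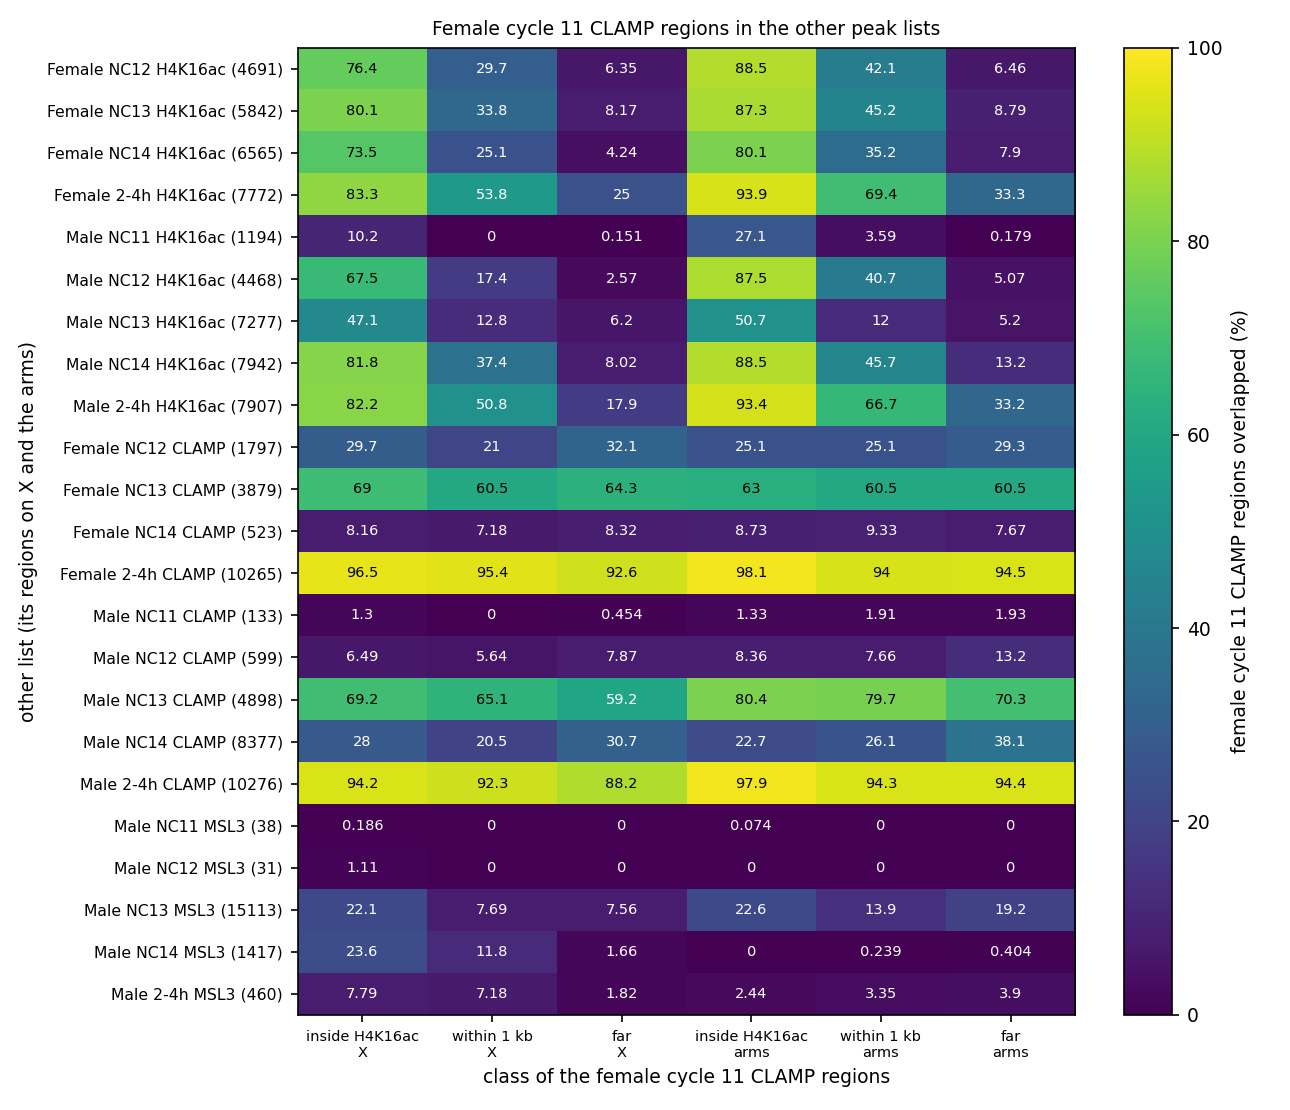
Share of female cycle 11 CLAMP regions of each class (columns, on X and along the autosome arms) that were overlapped by each other peak list (rows, with the number of its regions on these chromosomes), as colour and number in %. In each row for H4K16ac the inside column is the highest of its 3, and in the row for female 2-4 h CLAMP the classes lie within 92.6 to 98.1%.

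In some later lists the H4K16ac regions differed by whether they held CLAMP. On X, female 2-4 h H4K16ac overlapped 86.7% of those with CLAMP (83.1 to 89.7) and 35.5% of those without (33.1 to 37.9). On X the difference was present at each width. It was 71.2% (56.9 to 82.9, n = 52) against 18.5% (15.4 to 21.9, n = 568) for regions of at most 500 bp, and 92.5% (86.6 to 96.3) against 66.0% (59.8 to 71.9) for those of 2 to 5 kb. Along the autosome arms the shares were 92.3 and 71.4% for regions of at most 500 bp, and 99.4 and 93.5% at 2 to 5 kb.

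In the male cycle 14 lists the difference on X did not hold at each width. Male cycle 14 H4K16ac overlapped 59.6% (45.1 to 73.0) of X regions of at most 500 bp with CLAMP and 41.02% (36.9 to 45.2) of those without, and 77.0 and 56.9% at 0.5 to 1 kb, but 85.7 and 83.1% at 1 to 2 kb, 95.5 and 96.0% at 2 to 5 kb and 100% of both over 5 kb. Male cycle 14 MSL3 overlapped 59.5% of X H4K16ac regions with CLAMP and 36.3% of those without, and within a width group the intervals of the 2 kinds overlapped. The shares were 96.2% with and 90.2% without over 5 kb, 78.2% (70.2 to 84.9) with and 78.0% (72.3 to 83.0) without at 2 to 5 kb, 42.9 and 47.6% at 1 to 2 kb, 21.3 and 21.6% at 0.5 to 1 kb, and 7.69% (2.14 to 18.5) and 16.7% (13.7 to 20.1) at up to 500 bp. The width groups were set after the unstratified values had been seen.

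At 2-4 h, where the CLAMP lists are about as long in both sexes and longer than at cycle 11, larger shares of CLAMP regions lay inside H4K16ac. In females the share of CLAMP regions inside H4K16ac was then 49.8% on X (windows 11.6%) and 59.7% along the autosome arms (windows 10.9%), 4.30 and 5.45 times that of windows. Fold was then higher inside than far, with medians of 4.67 and 3.64 on X and 4.35 and 3.66 on the autosome arms. At male 2-4 h the shares were 49.8 and 58.0%, and the medians inside and far were 5.02 and 4.40 on X and 4.95 and 4.18 on the autosome arms. In females of cycle 13 the shares were 38.3 and 37.8%, and the arms again had the lower median inside (4.05 against 4.52). The ratio to windows on X was 1.95 at female cycle 11, 4.02 and 3.61 at female cycles 12 and 13, and 1.32 at female cycle 14, with 134 CLAMP regions on X. On the autosome arms it was 6.72, 5.17, 4.74 and 3.04 at female cycles 11 to 14. The contrast between X and the arms was thus largest at cycle 11. In males the ratio was 3.30, 2.08, 1.38 and 3.90 on X at cycles 12, 13 and 14 and at 2-4 h. On the arms it was 3.97, 3.25, 2.18 and 4.75. Male cycle 11 had 16 CLAMP regions on X, 1 of them inside. H4K16ac overlapped 19.8% of X windows at female cycle 11 and 7.20, 10.6 and 14.7% at cycles 12, 13 and 14.

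Most H4K16ac regions were called near the significance limit of the list, whose lowest −log10 q was 1.30. With a −log10 q of at least 5, 35 X regions (1.75%) and 461 on the autosome arms (11.7%) were left. CLAMP regions were then inside in 1.15% of cases on X (windows 0.257%) and 6.23% along the autosome arms (windows 0.725%).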

How the data were processed

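CLAMP and H4K16ac were each mapped by ChIP-seq in 1 pool of 200 female embryos of cycle 11. Per the submitters' processing notes, the tools were MACS2 2.1.1, SAMtools 1.9, Picard and Bowtie2, and the genome build was dm6. Their settings and the control library are not given in the sources used here.

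The CLAMP file is a narrow and the H4K16ac file a broad peak list. The deposited fold enrichment of each peak is the authors' ratio to local background and is not scaled across lists. The authors also deposited −log10 p and −log10 q values, with lowest −log10 q of 2.01 (CLAMP) and 1.30 (H4K16ac). The deposited score was not used. The summit offset, deposited by the authors in bp from the region start, was used to place summits. The 6096 CLAMP summits fell in 5462 regions, and each region was counted once, with its highest fold. Depth was unknown.

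Overlaps and gaps were computed with Python 3.11.15, NumPy 2.4.6, pandas 2.3.3 and SciPy 1.17.1, and tested on simulated regions with known classes. Background windows of 500 bp tiled each arm to the end of its last annotated gene. Genes came from the RefSeq table of Release 6, which has no strand or exons. os was not matched, and h, frs and otd were found by synonym as hry, Z600 and oc. With 1 list per target no test was made. A search for GA motifs had been planned but needs genome sequence, which was not used here. Chromosomes 4, Y and M were left out of shares, and the IgG and input samples were not analysed here.

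Genes named are the 4 strongest CLAMP regions of each class, the widest, strongest and fullest H4K16ac regions, the roX, MSL, Clamp and Sxl genes, regions at the class limits, and in each list up to 4 members with CLAMP inside and 2 with it far. Some items that this rule selects are not reported here. Other members were named after their values were seen, among them the remaining Hox genes, the genes of a small list that lacked a mark, and dsx. The classes and gene lists were chosen with earlier results of these data known. Alternatives were a −log10 q minimum of 5 for either list, 50% cover, the summit base, a limit of 2 kb, X to 22 Mb and genes without flank.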

Additional observations from a re-analysis of the deposited data

How the results depend on the processing

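Of 54 values recomputed under the alternatives, 22 stayed within the 95% interval of the reported value and 32 did not. No paired analysis was possible because each target had 1 list and no test was made. With H4K16ac regions of −log10 q of at least 5, values on X and on the autosome arms were 1.15 and 6.23% inside, 0.143 and 0.950% within 1 kb (windows 0.278 and 0.828%, so that on X, with 2 regions, the share lay below that of windows), 62.9 and 52.3% of H4K16ac regions without CLAMP, and 3.13 and 16.2% of CLAMP genes with H4K16ac. The median fold inside was then 3.32 (16 regions) and 2.93, and that of far regions on the autosome arms 3.25. With 50% of the CLAMP region to be covered they were 27.5 and 22.5% inside, 25.2 and 21.8% within 1 kb, 85.4 and 80.0% of H4K16ac regions without CLAMP, and a median fold inside of 3.35 and 2.96. With the summit base they were 27.0 and 21.6% inside, 23.8 and 21.5% within 1 kb, and on the autosome arms a median fold inside of 2.96. A limit of 2 kb gave 20.4 and 14.0% near, where 14.1 and 10.3% of windows were. With CLAMP regions of −log10 q of at least 5, the median fold inside was 3.74 and 3.25, that of far regions on the autosome arms 3.61, and the share of H4K16ac regions without CLAMP 80.6 and 72.3%. Without the 1 kb flank, 70.2% of autosomal CLAMP genes had H4K16ac. X to 22 Mb moved nothing beyond its interval. On the autosome arms the median fold was lower inside than far under each alternative, and on X this order turned with H4K16ac of −log10 q of at least 5 (3.32 against 3.45), with 50% cover (3.35 against 3.47) and with the summit (3.36 against 3.46). The cause was not tested. How many weak regions were called depends on read depth, which was unknown.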

Other observations

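Chromosome 4, which is small and largely heterochromatic, held 68 CLAMP and 56 H4K16ac regions. Chromosome Y held 0 CLAMP and 5 H4K16ac regions, and the mitochondrial genome 0 and 4.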
